A study of Homo sapiens with 8 samples.

Results

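The kinases and upstream regulators of the Hippo pathway examined here are 9 genes, LATS1, LATS2, MOB1B, SAV1, STK4, TAOK1, WWC1, PTPN14 and FAT1. They were chosen by name, with earlier results of these data known. All of their rows were taken from 4 deposited lists of peaks, where a peak is a stretch of transcript enriched in RNA recovered with QKI7, an isoform of the RNA-binding protein Quaking. They held 117 of the 42083 peaks, in 9 of the 6520 genes listed. Overlapping peaks of 1 gene and strand (1 base or more in common, within or between lists) were joined into a site, which gave 35 sites of these genes among 14518 in all.

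The cells were HepG2, an established human liver cancer line, carrying Cas9 and a lentiviral 3 x Flag-QKI7 transgene. This overexpression was shared by every group, so the peaks are those of tagged, overexpressed QKI7. METTL1, an enzyme that places 7-methylguanosine on RNA, was depleted with a guide RNA (sgMETTL1, labelled METTL1 KO). Cells with sgNS, labelled control, were the reference. GFP-positive cells were selected and expanded, and the labels do not say whether clones or separate cultures were used. The 8 samples formed 4 groups of 2: Flag IP and input RNA with sgMETTL1, and Flag IP and input RNA with sgNS. Each IP and input pair gave 1 list, so each guide had 2 lists.

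In the Hippo pathway, the kinase STK4 (MST1) with its scaffold SAV1 activates the kinases LATS1 and LATS2, which act with MOB1 proteins such as MOB1B. The LATS kinases phosphorylate the coactivators YAP and TAZ, which are then held in the cytoplasm and kept from TEAD transcription factors. In the liver the pathway restrains organ growth. Upstream, TAOK1 phosphorylates MST kinases, WWC1 (KIBRA) is a scaffold that promotes LATS activation, and FAT1 is a giant cadherin at the cell surface. PTPN14 is a tyrosine phosphatase that binds YAP. Quaking proteins bind RNA by an ACUAAY element and act in splicing, stability and translation of mRNA. The series asked if QKI7 binds its transcripts differently once METTL1 is depleted. No genome sequence was used here, so the sequences under these peaks are not shown.

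The lists held 10095 and 9388 peaks with sgMETTL1 and 11562 and 11038 with sgNS. The number of reads behind a peak is unknown. METTL1 had no peak in any list, and peak lists hold no expression values, so neither the knockout nor the identity of the cells could be checked. The level of each RNA in the input is not in the lists, and its part in the folds was not tested.

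All 9 genes had a peak in all 4 lists, against 63.7% of the 6520 genes. They were chosen with earlier results of these data known, so the counts here are not read as a trait of the pathway. Of 72 other pathway genes, 30 were in all 4 lists and 32 in none. Of all genes, 10.3% were in 3 lists, 4.39% in 1 list of each guide, 15.5% in 1 list, 4.63% in both sgNS lists alone and 1.52% in both sgMETTL1 lists alone, and no member was. With sgMETTL1 they held 27 and 28 peaks, and with sgNS 32 and 30. The median number of sites was 4 per member and 2 over all genes. MOB1B had 7 sites, TAOK1 6, PTPN14 5, LATS1, LATS2 and STK4 4 each, WWC1 and FAT1 2 each, and SAV1 1. None of the peaks joined several exon blocks, whereas 10.8% of all sites had such a peak. Of the 35 sites, 29 (82.9%) lay within 5000 bases of the 3' end of the RefSeq gene, near the 80.6% of all sites whose gene matched a RefSeq span. Distances here and below run along the genome, introns included. None of the 117 peaks shared a base with a peak of another gene name on the same strand. Which part of the transcript the peaks lie in was not analysed here.

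The scaffold gene SAV1 had the strongest enrichment of the 9. Its single site reached the 3' end of the gene (GRCh38, chromosome 14, minus strand, 50633580 to 50634537). The authors' fold enrichment of IP over input there was 53.3 and 40.3 with sgMETTL1, against 34.7 and 30.7 with sgNS. Both sgMETTL1 folds were above both sgNS folds. They stood at percentiles 2.27 and 3.40 of all peaks of their lists with sgMETTL1, and at 4.68 and 5.12 with sgNS, where 0 is the strongest. The site covered 838 and 958 bases with sgMETTL1 and 958 and 928 bases with sgNS, so its width overlapped between the guides. Its -log10 p ran the other way from the fold, at 74.8 and 84.5 with sgMETTL1 and 121 and 142 with sgNS.

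STK4, the kinase that SAV1 binds, had 1 strong site and 3 weak ones, all in the last 2 kb of the gene on the plus strand of chromosome 20. The strong site (45079407 to 45079977) ended 44 bases before the end of the RefSeq gene. Its fold was 18.1 and 23.5 with sgMETTL1 and 27.4 and 22.3 with sgNS. The guides overlapped, since replicate 2 of sgMETTL1 stood above replicate 2 of sgNS. Its evidence was strong: the -log10 p was 289 and 336 with sgMETTL1 and 553 and 531 with sgNS, at percentile 3.03, 2.97, 3.01 and 3.03 of the lists in that order. The 3 weak sites upstream had folds of 1.5 to 1.98. The nearest of them (45078957 to 45079287) was at 1.92 in replicate 1 of sgMETTL1 and at 1.98 and 1.61 with sgNS, and the next (45078717 to 45078897) at 1.55 in replicate 2 of sgMETTL1 and 1.5 in replicate 1 of sgNS. The farthest upstream of them (45078207 to 45078357) was in no sgMETTL1 list and had folds of 1.87 and 1.68 with sgNS.

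LATS1 and LATS2, the kinases that phosphorylate YAP and TAZ, differed in how their sites were laid out. LATS2 had 3 adjoining sites in the last 2 kb of the gene, on the minus strand of chromosome 13, and all 3 were in all 4 lists. The site at the very 3' end (20973036 to 20973485) had folds of 6.67 and 7.82 with sgMETTL1, against 12.4 and 9.51 with sgNS. Both sgMETTL1 folds were the lower ones, and the site covered 331 and 331 bases with sgMETTL1 against 450 and 450 with sgNS. The next site upstream (20973515 to 20974234) had folds of 7.04 and 8.15 with sgMETTL1 and 7.22 and 4.71 with sgNS, which overlapped. The third (20974354 to 20974893) had 4.79 and 2.63 with sgMETTL1 and 4.45 and 3.2 with sgNS, which also overlapped. Another site of LATS2, 72893 bases from the 3' end, was in replicate 1 of sgNS alone with a fold of 1.77.

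LATS1 had a site far from its 3' end as well as sites near it, on the minus strand of chromosome 6. The distant site (149683510 to 149683899) lay 25357 bases upstream of the 3' end along the genome, which is not a distance along the mRNA. It had folds of 2.35 and 2.45 with sgMETTL1 and 3.62 and 3.51 with sgNS, so the 2 guides did not overlap and replicates lay close together. The -log10 p there was 11 and 13.6 with sgMETTL1 against 50.8 and 43.9 with sgNS. It was lower in both sgMETTL1 lists at 76.2% of all sites in all 4 lists too. At the 3' end (149658183 to 149658692) the folds were 10.7 and 7.87 with sgMETTL1 and 4.24 and 16.9 with sgNS, so the sgNS replicates enclosed both sgMETTL1 values. The sgNS peak of 16.9-fold was 151 bases wide with a -log10 p of only 4.13, and the sgMETTL1 peak of 10.7-fold was 61 bases wide with a -log10 p of 2.92. Between these lay a site with folds of 2.14 and 2.04 in the sgNS lists and no peak with sgMETTL1 (149660578 to 149660758), and a site (149660878 to 149661267) at 2.88 in replicate 2 of sgMETTL1 and 2.62 and 2.64 with sgNS.

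MOB1B, the LATS coactivator, had the most sites, and 4 of its 7 were in all 4 lists, within the last 6 kb of the gene on the plus strand of chromosome 4. The site at the 3' end (70987364 to 70988174) had folds of 15.1 and 23.6 with sgMETTL1 and 20.2 and 14.7 with sgNS. The widest site (70983557 to 70985056) had 21.3 and 16.7 with sgMETTL1 and 17.7 and 15.7 with sgNS. At both of these strong sites the folds of the guides overlapped. The site between them (70986105 to 70986375) was weaker, with folds of 3.32 and 3.33 with sgMETTL1, below the 4.77 and 4.68 with sgNS. The site farthest upstream (70982837 to 70983467) had 4.83 and 3.92 with sgMETTL1 and 9.84 and 5.28 with sgNS, again lower in both sgMETTL1 lists. Where the widest site was 1 peak of 1470 and 1320 bases with sgNS, each sgMETTL1 list held 2 peaks there, covering 1202 and 1321 bases. The other 3 sites were each in 1 list only, among them a peak of 9.25-fold in replicate 2 of sgMETTL1 with a -log10 p of 4.20.

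**Figure D1:**
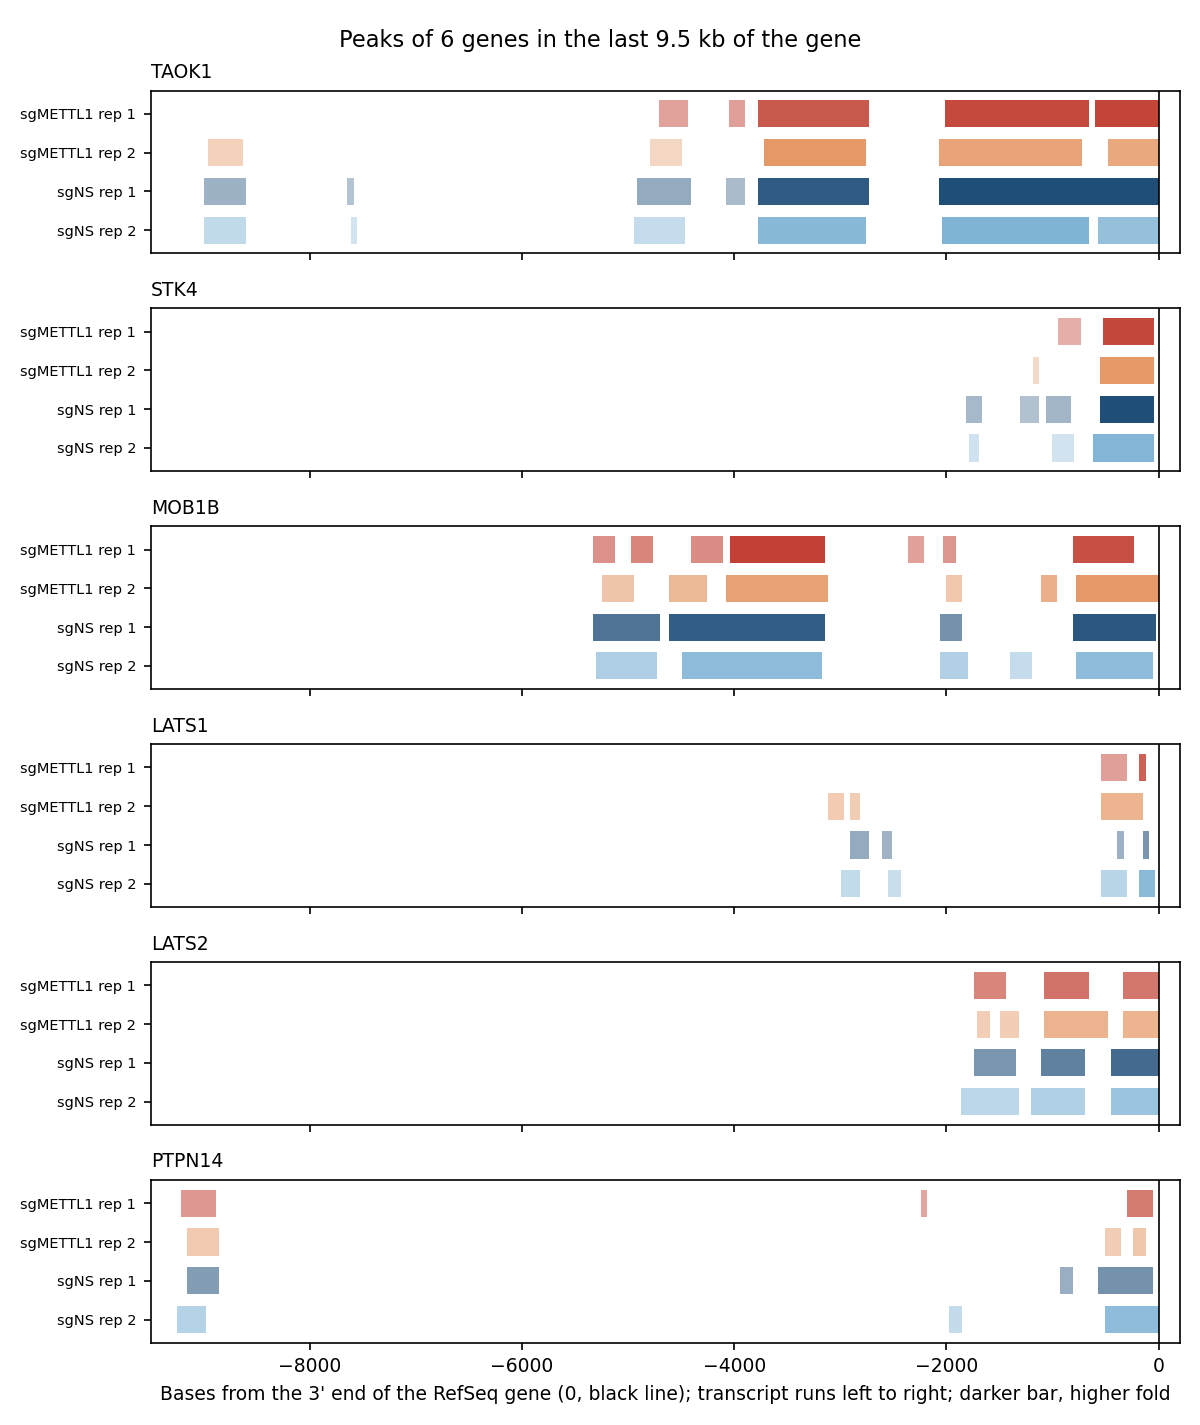
Peaks of TAOK1, STK4, MOB1B, LATS1, LATS2 and PTPN14 in each list, by distance in bases from the 3' end of the RefSeq gene, within the last 9.5 kb. Each bar is 1 peak, red and orange for sgMETTL1 and blues for sgNS, and a fuller colour is a higher authors' fold. The strong sites of TAOK1, STK4 and MOB1B are in every list, and the wide MOB1B site is 1 peak in each sgNS list and 2 in each sgMETTL1 list.

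TAOK1, the upstream kinase, had the longest stretch under peaks, with 3423 and 3423 bases with sgMETTL1 and 4263 and 3904 with sgNS. Its site at the 3' end (plus strand of chromosome 17, 29549835 to 29551903) had folds of 19.5 and 15.1 with sgMETTL1, against 27.1 and 23.6 with sgNS. By the strongest peak of each list, both sgMETTL1 folds were lower there. However, the site was 1 peak in replicate 1 of sgNS and 2 peaks in each other list. Of these 2, the peak reaching the 3' end was at 19.5 and 12.9 with sgMETTL1 and 12.1 in replicate 2 of sgNS. The other peak was at 17.7 and 15.1 with sgMETTL1 and 23.6 in replicate 2 of sgNS. The next site upstream (29548126 to 29549175) had 12.6 and 24.2 with sgMETTL1 and 18.5 and 17.8 with sgNS, so the sgMETTL1 replicates enclosed the sgNS ones. The third site in all lists (29546957 to 29547497) was weak, with 2.55 and 1.82 with sgMETTL1 and 2.65 and 2.39 with sgNS, and it covered 271 and 301 bases with sgMETTL1 against 511 and 481 with sgNS. Farther upstream, a site (29542910 to 29543300) was at 2.33 in replicate 2 of sgMETTL1 and at 2.16 and 2.66 with sgNS. A site downstream of the third (29547826 to 29548006) was in replicate 1 of each guide, at 2.65 with sgMETTL1 and 1.73 with sgNS. A narrow site upstream (29544259 to 29544349) was in both sgNS lists, at 1.46 and 1.56, and in no sgMETTL1 list.

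WWC1, the scaffold that promotes LATS activation, had 1 site in all lists. That site (plus strand of chromosome 5, 168469398 to 168469758), 2545 bases from the 3' end, had folds of 6.18 and 5.55 with sgMETTL1 and 5.43 and 5.80 with sgNS, and the guides overlapped. A second site, 1857 bases from the 3' end, was in replicate 1 of sgNS alone, at 5.09.

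FAT1, the atypical cadherin, had its stronger site 33349 bases from the 3' end (minus strand of chromosome 4, 186621143 to 186621592). The fold there was 10.7 and 8.53 with sgMETTL1 and 12.8 and 11.5 with sgNS, lower in both sgMETTL1 lists. This site had the smallest p of all member sites in every list, with a -log10 p of 1350 and 1220 with sgMETTL1 and 2280 and 2090 with sgNS, although its fold was only at percentiles 20.1 to 27.4. At the 3' end of FAT1 (186587783 to 186588592) the order was turned: 5.53 and 4.63 with sgMETTL1, both above the 3.76 and 4.25 with sgNS. That site was 1 peak of 810 and 720 bases with sgMETTL1, and 2 peaks covering 751 and 751 bases with sgNS.

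PTPN14, the phosphatase that binds YAP, had 2 sites in all 4 lists on the minus strand of chromosome 1. At the 3' end (214348696 to 214349265) the folds were 6.10 and 3.42 with sgMETTL1 and 4.79 and 14.8 with sgNS. The value of 14.8 stood apart from the other 3, and its -log10 p of 8.46 was below the 12.9 of replicate 1 of sgNS at 4.79-fold. The site covered 240 and 272 bases with sgMETTL1 and 510 and 510 bases with sgNS. The other site (214357558 to 214357947), 8858 bases upstream, had folds of 3.15 and 3.07 with sgMETTL1 and 3.66 and 4 with sgNS. The remaining 3 sites of PTPN14 were each in 1 list, at 2.38 to 2.55.

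**Figure D2:**
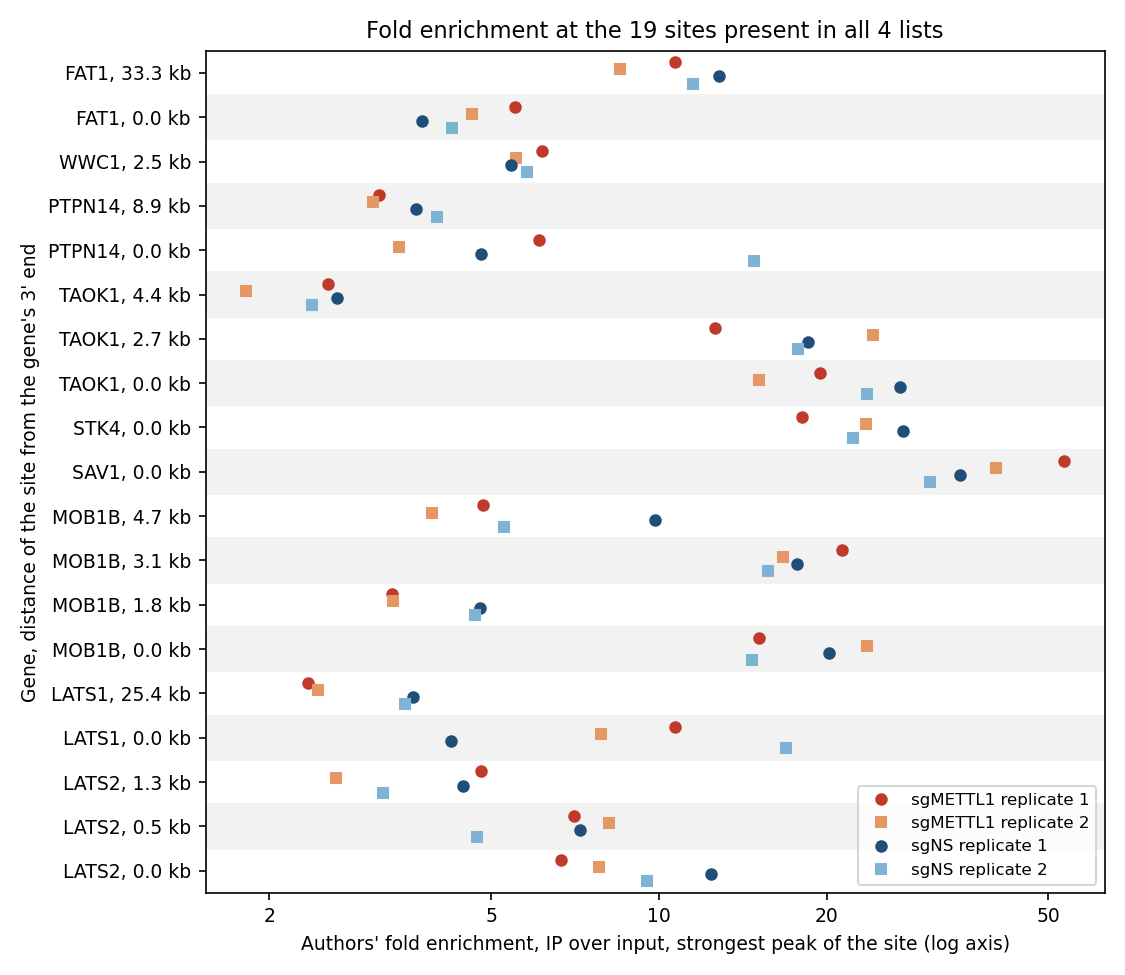
Authors' fold enrichment (IP over input, log axis) at the 19 sites of the 9 genes that are in all 4 lists, with each gene's site labelled by its distance from the gene's 3' end; a site that reaches or passes that end is at 0.0 kb. Each point is 1 list, red and orange for sgMETTL1 and blues for sgNS. SAV1 lies highest in every list, at 30.7 to 53.3, and the 3'-end sites of LATS1 and PTPN14 have their widest gaps between the 2 sgNS replicates.

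By the percentile of their strongest fold, averaged over the lists, the genes ran SAV1 (3.87), TAOK1 (8.90), STK4 (9.60), MOB1B (11.5), FAT1 (22.5), LATS2 (26.7), LATS1 (29.6), WWC1 (39.8) and PTPN14 (41.0). SAV1 did not overlap TAOK1 in these percentiles. TAOK1, STK4 and MOB1B overlapped one another, at 7.06 to 15.0, and lay below the 20.1 to 27.4 of FAT1. FAT1 and LATS2 overlapped, and the ranges of LATS1 (13.7 to 52.9) and PTPN14 (16.0 to 62.3) were too wide to place them against FAT1, LATS2 or WWC1.

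By presence, 19 of the 35 sites (54.3%) were in all 4 lists, against 41.3% of all sites. None was in both sgMETTL1 lists and no sgNS list, a pattern held by 1.21% of all sites. In the opposite pattern, both sgNS lists and no sgMETTL1 list, were 3 of 35 (8.57%), against 7.42% of all sites. These were the weak sites of LATS1, STK4 and TAOK1 named above, with folds of 1.46 to 2.14. With the same number of top-ranked peaks, 9388, taken from each list the count in this pattern was 1, and with peaks of at least 2 times the smallest fold it was 0. Judged without 1 list, the pattern asks only for the lists that remain, so its count can stay or rise but not fall. Without replicate 2 of sgMETTL1 or replicate 1 of sgNS it was 5, and without replicate 2 of sgNS it was 6. Sites with sgMETTL1 alone numbered 1 without replicate 1 of sgMETTL1 and 2 without its replicate 2. Shares of all sites under these settings are not given here, so these counts have no background beside them. Of the other sites, 3 (8.57%, against 11.7% of all sites) were in 3 lists and 2 (5.71%, against 5.89%) in 1 list of each guide. The last 8 (22.9%, against 32.4%) were in 1 list, 3 of these with sgMETTL1 and 5 with sgNS.

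None of the 19 shared sites passed the test of a difference in strength between the guides, which does not show that they were equal. Whether folds can be compared in size from list to list is not known, so ranks were used. The strongest fold of each of the 6003 sites present in all 4 lists was ranked in each list among those sites only. It was replaced by the normal score of that rank, and 2 sgMETTL1 lists were set against 2 sgNS lists with limma. The percentiles given above rank among all peaks of a list instead, so the order of the lists can differ between the measures. Of the 19, 0 passed at an FDR of 5%, as did 0% of all 6003 sites. At an unadjusted p under 0.05 the counts were 0 of 19 and 628 of 6003. The adjusted p of the member sites lay between 0.483 and 0.941. Their median score difference was -0.05, and -0.02 over all sites. With 2 lists against 2, an exact permutation test of a single site cannot give a two-sided p below 0.333.

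The widest differences among the 19 ran in both directions. The 3'-end site of FAT1 was higher with sgMETTL1 by a score of 0.47 (SE 0.19, limma's adjusted p = 0.483), and the middle site of LATS2 by 0.44 (SE 0.22, adjusted p = 0.538), or by 0.24 without replicate 2 of sgNS. The SAV1 site differed by 0.34 (SE 0.18, adjusted p = 0.546). On the lower side were the distant site of LATS1, at -0.40 (SE 0.19, adjusted p = 0.512), and the 3'-end site of PTPN14, at -0.40 (SE 0.44, adjusted p = 0.775). Without replicate 2 of sgNS the PTPN14 difference was 0.17, so its sign rested on that list. The LATS1 site at the 3' end differed by 0.32 (SE 0.47, adjusted p = 0.844), and by -0.37 without replicate 1 of sgNS.

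Both sgMETTL1 lists ranked above both sgNS lists at 5 of the 19 sites (26.3%, against 20.3% of all sites), below them at 4 (21.1%, against 23.7%), and overlapped at 10 (52.6%, against 56%). On the folds as deposited these counts were 2 higher (10.5%, against 9.9%), 7 lower (36.8%, against 38.7%) and 10 overlapping (52.6%, against 51.4%). The WWC1 site was among the 5 ranked higher, though its folds overlapped. The distant FAT1 site overlapped by rank, though its folds were lower in both sgMETTL1 lists. The shift towards lower folds was shared by the 6003 sites in all 4 lists. Their median log2 fold difference was -0.22, and that of the 19 was -0.22. Over all peaks of a list the median fold overlapped between guides, at 4.47 and 4.44 with sgMETTL1 and 4.58 and 4.325 with sgNS. In MOB1B, the 2 strong sites gave 0.18 (3' end) and 0.21 by rank and the 2 weaker ones -0.23 and -0.33 (farthest upstream), and none of these passed the test. Single lists set the size of 2 of them: the 3' end gave 0.0048 without replicate 2 of sgMETTL1 and 0.37 without its replicate 1, and the site farthest upstream -0.061 without replicate 1 of sgNS and -0.61 without its replicate 2.

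**Figure D3:**
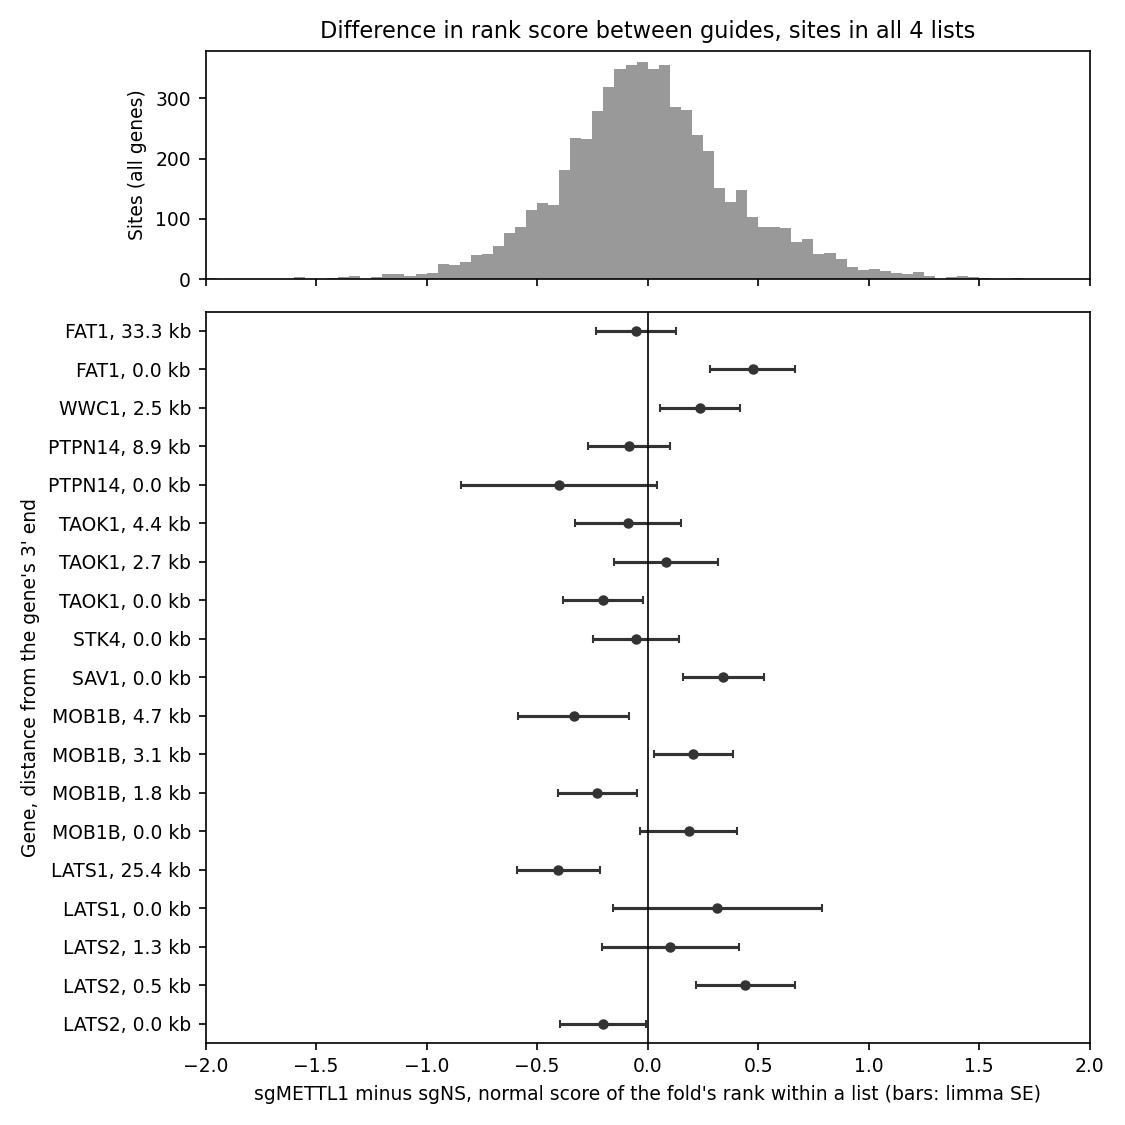
Difference in rank score, sgMETTL1 minus sgNS, with the number of sites of all genes per bin above and the 19 sites of the 9 genes below (points with limma's SE, n = 2 lists per guide). The 19 lie between -0.40 and 0.47, on both sides of 0.

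The stretches under peaks were shorter with sgMETTL1 for several of these genes. The 9 genes together had 11146 and 11867 bases under peaks with sgMETTL1 and 14176 and 13727 with sgNS. Over all genes the sums were 3705908 and 3591504 with sgMETTL1 and 4829633 and 4622629 with sgNS, so the members moved with the lists as a whole. TAOK1, STK4, MOB1B, LATS2 and PTPN14 had fewer covered bases in both sgMETTL1 lists than in either sgNS list, which is 5 of 9 genes, against 58.8% of the 4150 genes in all 4 lists. None had more, against 3.71%.

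By site, 7 of the 19 were narrower in both sgMETTL1 lists (36.8%, against 49.1% of the 6003 sites) 0 were wider (against 4%) and 12 overlapped (63.2%, against 46.9%). They were sites of LATS1, LATS2, MOB1B, TAOK1 and PTPN14, and the widest gap was at the 3' end of PTPN14, a log2 difference in covered bases of -1 (SE 0.09, limma's adjusted p = 0.129). At an unadjusted p under 0.05, 5 of the 19 were narrower, against 19.8% of all sites, and limma called 0 of 19 and 0% of all sites at an FDR of 5%. Over all shared sites the median log2 difference was -0.24, and over the 19 it was -0.14. The -log10 p was lower in both sgMETTL1 lists at 16 of the 19 sites (84.2%) and at 76.2% of all sites, and higher at 0 (against 3.45%). By rank of p within a list, 7 were higher (36.8%, against 27.3%) and 5 lower (26.3%, against 26.6%). Both sgMETTL1 lists held more peaks than both sgNS lists at 1 site, the wide one of MOB1B (against 4.08%), and fewer at 1, the 3' end of FAT1 (against 0.816%). An sgMETTL1 list held more peaks than either sgNS list at 4 sites (against 14.1%), and the reverse held at 1 (against 5.75%). The part of sequencing depth in the narrower peaks was not tested, since read totals were not used here.

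**Figure D4:**
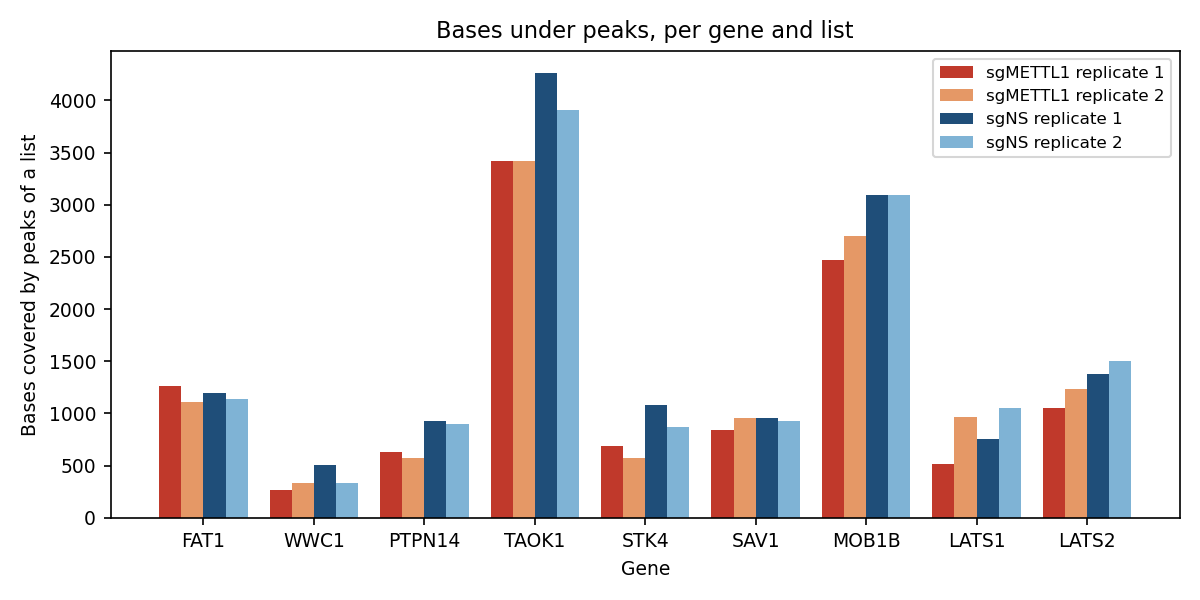
Bases under peaks per gene (vertical axis) in each list, red and orange for sgMETTL1 and blues for sgNS. TAOK1 and MOB1B have the most, and in TAOK1, STK4, MOB1B, LATS2 and PTPN14 both sgMETTL1 bars are shorter than both sgNS bars, whereas SAV1, FAT1, LATS1 and WWC1 overlap.

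A wider list of 72 other Hippo pathway genes was looked up, and 40 had a peak in some list: 30 in all 4, 1 in 3, 3 in 1 list of each guide, 2 in both sgNS lists alone, 0 in both sgMETTL1 lists alone and 4 in 1 list. Close relatives of the 9 differed in whether they were listed. STK3 (MST2), the sister kinase of STK4, was in no list. MOB1A, the sister of MOB1B, was in 1 list of each guide, at 2.12 in replicate 1 of sgMETTL1 and 1.69 in replicate 1 of sgNS. TAOK2 was in no list and TAOK3 in 1, at 5.21 in replicate 1 of sgNS. FAT2, FAT3, FAT4 and NF2, which encodes the membrane scaffold Merlin, were in no list. Without levels of the RNAs, a gene in no list cannot be told apart from one that is not expressed.

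The WWC family was listed throughout. WWC2 had folds of 31.7 and 21.1 with sgMETTL1 and 17.3 and 19.8 with sgNS, and WWC3 had 19.8 and 21.5 with sgMETTL1 and 35.6 and 79.2 with sgNS. The 2 genes thus did not overlap between guides, in opposite directions. Of all 4150 genes in all 4 lists, 20% ranked higher in both sgMETTL1 lists and 22.7% lower. The score differences by gene were 0.39 (SE 0.21, limma's adjusted p = 0.589) for WWC2 and -0.77 (SE 0.31, adjusted p = 0.516) for WWC3. PTPN21, the relative of PTPN14, had 11.2 and 4.44 with sgMETTL1 and 3.21 and 10.6 with sgNS, which overlapped.

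Among kinases around the core, the NDR kinase STK38L had 22.4 and 40.1 with sgMETTL1 and 39.5 and 40.1 with sgNS. MAP4K3, which like TAOK1 can act upstream of LATS, had 14.3 and 14.8 with sgMETTL1 and 12.6 and 18.0 with sgNS, and its relative MAP4K4 had 12.5 and 10.5 with sgMETTL1 and 14.5 and 15.5 with sgNS. By rank score the guides overlapped for all 3, though the folds of MAP4K4 were lower in both sgMETTL1 lists. CSNK1E, a casein kinase with a part in the phosphorylation of YAP for degradation, had 42.4 and 32.6 with sgMETTL1. It had 52.7 and 44.7 with sgNS, so it was lower in both sgMETTL1 lists. FBXW11, a substrate receptor of the ubiquitin ligase for phosphorylated YAP, had 61.0 and 31.6 with sgMETTL1 and 25.5 and 109 with sgNS, which overlapped.

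The scaffold PATJ, of the Crumbs polarity complex, had 10.5 and 20.7 with sgMETTL1 and 17.7 and 13.5 with sgNS. STRN and CTTNBP2NL are scaffolds of the STRIPAK phosphatase complex, which acts on MST kinases. STRN had 8.51 and 20.8 with sgMETTL1 and 10.6 and 14.4 with sgNS. CTTNBP2NL had 17.1 and 11.5 with sgMETTL1 and 12 and 12.4 with sgNS. In each case the folds overlapped between guides, though CTTNBP2NL was higher in both sgMETTL1 lists by rank score. RASSF2, which binds MST kinases, had 16.8 and 27.8 with sgMETTL1 and 8.49 and 11.6 with sgNS, with a score difference by gene of 0.78 (SE 0.26, limma's adjusted p = 0.462). It was the only 1 of the 30 at an unadjusted p under 0.05, where 212 of all 4150 genes were higher and 196 lower. RASSF6, of the same family, was in both sgNS lists alone, at 20.8 and 27.5, and FGFR1OP2 of STRIPAK likewise, at 4.30 and 2.96. Genes found in both sgNS lists alone made up 4.63% of all genes.

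Of the effectors, YAP1 had 14.1 and 9.84 with sgMETTL1 and 18.0 and 14.8 with sgNS. WWTR1, which encodes TAZ, had 2.51 and 2.48 with sgMETTL1 and 3.06 and 3.10 with sgNS. Folds of both genes were lower in both sgMETTL1 lists. By rank score YAP1 overlapped between the guides and WWTR1 was lower. By gene, limma called 0 of the 30, as it did 0% of the 4150 genes in all 4 lists. Ranks stood higher in both sgMETTL1 lists for 8 of the 30 and lower for 6, against 20% and 22.7% of all genes. For the 9 members these counts were 3 and 0. The median score difference of the 30 was 0.04, and -0.02 over all genes.

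**Figure D5:**
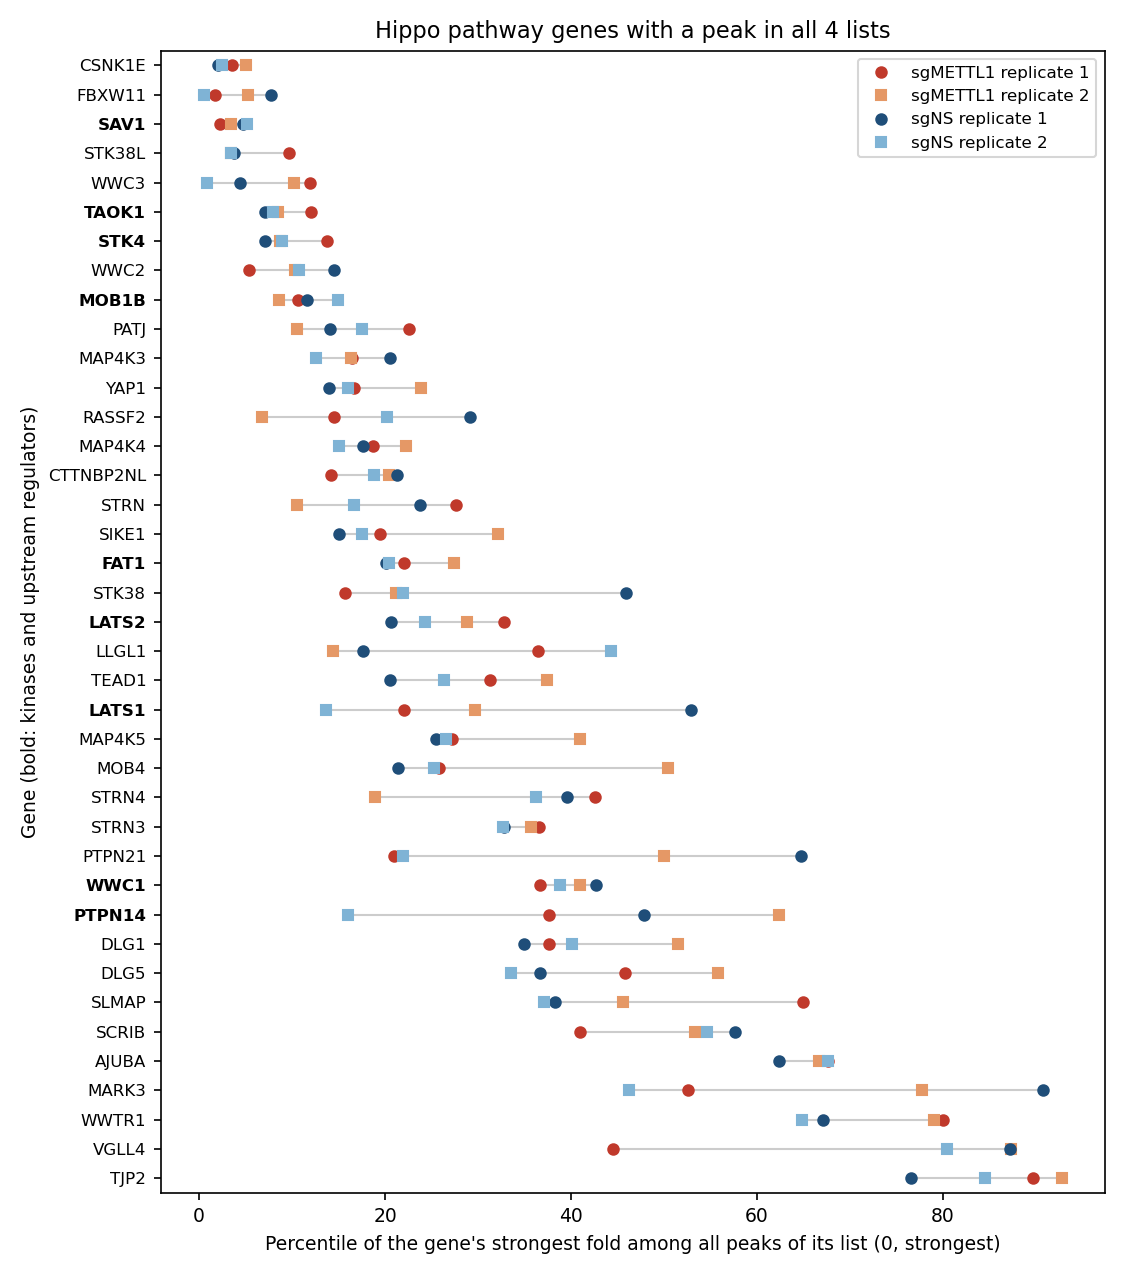
Percentile of each gene's strongest fold among all peaks of its list (0 is the strongest) for the 9 genes, in bold, and the 30 other pathway genes in all 4 lists, ordered by the mean of the lists. Red and orange points are sgMETTL1 lists and blue points sgNS lists, and grey lines span the 4. SAV1, TAOK1, STK4 and MOB1B lie near the top, with CSNK1E and FBXW11 above SAV1 and STK38L and WWC3 above TAOK1. LATS1 and PTPN14 have wide spans, as do other pathway genes such as PTPN21 and MARK3.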

How the data were processed

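Flag IP and input RNA of HepG2 cells were sequenced after UV cross-linking, sonication and depletion of ribosomal RNA, with stranded libraries, per the labels' protocols. STAR and GRCh38 are named in the submitters' processing notes. For the peak caller, its threshold, its scaling and tool versions, no source used here gives a name or value. The authors deposited 1 list per IP and input pair, with replicates not pooled. The fold enrichment is a ratio of IP over input as deposited by the authors. The p-value of a peak and its base-10 logarithm, handled as a score because its range exceeds that of usual log values, are also as deposited. Distances use RefSeq genes of GRCh38.p14 and are counted along the genome, introns included. Coordinates are 1-based.

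Peaks of 1 gene name, chromosome and strand sharing at least 1 exon base were joined into sites, and a site took its strongest peak per list. Limma 3.58.1 in R 4.3.3 compared guides (two-sided, Benjamini-Hochberg over all sites, FDR of 5%). The joining and the fit were tested on simulated data (Python 3.11.15, pandas 2.3.3, numpy 2.4.6, scipy 1.17.1, matplotlib 3.10.9). The test of covered bases, and ranking among all peaks, were added after the data were seen. The members, the pathway list and the rules were chosen with earlier results of these data known. All 9 members and their sites are named, with up to 12 other pathway genes with the best mean rank; pathway genes named beyond those are relatives of the members, effectors or genes of a small count, picked after their values were seen. MPP5 in the files was matched to PALS1. Motifs were not analysed here. Whether replicates came from separate cultures is not stated, and p-values then reflect the spread of these lists alone, which may be technical. Alternatives were 50% reciprocal overlap, log2 folds, ranks of p, the mean of a site's peaks, 1 value per gene, a minimum fold (2 times the smallest of the list), equal numbers of peaks, the replicate number as a block, and leaving out each list.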

Additional observations from a re-analysis of the deposited data

How the results depend on the processing

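Limma called 0 sites under every alternative run, on rank scores and on covered bases. With the replicate number as a block it also called 0 sites. Deviations of same-numbered lists correlated at -0.00 across sites, and the labels give no shared batch, so the numbers were not taken to pair the lists. At an unadjusted p under 0.05 the main comparison held 303 lower and 325 higher sites. Log2 folds gave 633 lower and 159 higher, and ranks among all peaks of a list 760 and 150, around medians of -0.22 and -0.18. Member sites in all 4 lists numbered 15 with 50% reciprocal overlap. Without 1 list, sites in every list that remained numbered between 19 and 21. Sites in both sgMETTL1 lists alone numbered 1 with 50% reciprocal overlap, which divides the 3' site of PTPN14. Sites in both sgNS lists alone numbered 1 with equal numbers of peaks and 0 with the fold minimum. Without 1 list, where fewer lists need to match, sites of sgMETTL1 alone numbered between 0 and 2. Those of sgNS alone then numbered between 4 and 6. Shares of all sites under these settings are not given here.

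Of 213 member site differences recomputed, 21 changed sign, and none of the 213 was called (smallest adjusted p 0.194). Ranks of p gave 0.048 (FAT1, distant site), -0.18 (LATS2, 1318 bases from the end), -0.026 (MOB1B, 3' end), 0.098 (PTPN14, distant site), 0.080 (STK4), and -0.017 and 0.039 (the middle and 3' sites of TAOK1). Log2 folds gave -0.088 (the same LATS2 site) and -0.055 (TAOK1, middle site), the mean of peaks -0.081 (MOB1B, widest site) and ranks among all peaks -0.14 (the same LATS2 site). Leaving out 1 list in turn, the sites that changed sign ran over -0.12 to 0.011 (the distant FAT1 site), -0.37 to 1.00 (the 3' site of LATS1), -0.26 to 0.47 (the LATS2 site 1318 bases from the end), -0.18 to 0.0037 (the distant PTPN14 site), -0.97 to 0.17 (the 3' site of PTPN14), -0.18 to 0.069 (STK4), -0.34 to 0.16 (the weak TAOK1 site), -0.17 to 0.33 (the middle TAOK1 site). Among sites that kept their sign, the 3' site of LATS2 ran over -0.31 to -0.095, its next site 0.24 to 0.64, and the 3' and farthest upstream sites of MOB1B 0.0048 to 0.37 and -0.61 to -0.061. The cause of these changes was not tested.

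Depth is unknown, folds of narrow peaks rest on small -log10 p, and 2 lists per guide limit every comparison.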
